A study of Homo sapiens with 6 samples.

Results

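The genes of G2 and mitosis described here are 57 genes, of the 60606 in the deposited table, whose symbol matched a list of cyclins, mitotic kinases, spindle checkpoint and kinetochore proteins, kinesins, cytokinesis factors, ubiquitin enzymes of mitosis and their transcription factors. They were matched by name and role, from a list drawn up with earlier results of these data known. All 57 were found once and all passed the filter of a mean of at least 1 TPM (the share of a gene in a library, scaled for its length and for the library total). They were measured in 6 tumors grown from MDA-MB-231, an established human triple-negative breast cancer line, used as wild-type cells and implanted with Matrigel under the skin of the left flank of NSG mice, a strain that lacks mature lymphocytes. The 3 irradiated tumors had grown to about 800 mm3 when 10 Gy of X-rays was given to each locally and in 1 dose, and the mice were killed 3 days after that. The 3 control tumors came from the same model without irradiation, and the labels give no volume or day for them. The comparison asks how the transcripts of dividing cells differ between irradiated and unirradiated tumors. The labels do not say that each tumor came from a separate mouse, so the p-values describe only how far these samples vary, which may be technical.

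Cells that enter G2 build up cyclins A and B, which activate the kinase CDK1 and drive entry into mitosis. Kinetochores then attach chromosomes to the spindle, the spindle checkpoint waits until every chromosome is attached, and the anaphase-promoting complex, a ubiquitin ligase, marks securin and cyclin B for destruction so that the chromosomes separate. Most of these genes are transcribed late in the cell cycle by a programme that involves B-MYB, FOXM1 and the DREAM complex, so their RNA is widely used as a sign of proliferation. DNA damage by radiation is known to hold cells before mitosis through the G2 checkpoint.

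The RNA of 3 of the 57 genes was lower in irradiated tumors by limma with Benjamini-Hochberg adjustment over all 14140 genes tested, and none was called higher. Among all genes tested, 227 were called lower, which is 1.61%, and 1.37% were called higher. The 3 were UBE2S, an enzyme that extends ubiquitin chains for the anaphase-promoting complex, SPC24, a subunit of the kinetochore's NDC80 complex, and ANLN, which encodes anillin, the scaffold of the cleavage furrow. In irradiated tumors they stood at 35.5%, 25.4% and 53.3% of their control means. The other members lay mostly below the control mean without passing the test: 54 of the 57 fitted fold changes were below 0, against 55.7% of all genes tested, and the median log2 fold change was -0.44, against -0.06 over all genes tested. In 22 members (38.6%) the groups did not overlap, with every irradiated tumor below every control tumor. This order was seen in 15.0% of all genes tested and in 50.0% of 12 widely expressed genes. No member had the reverse order, which 11.6% of all genes tested had. At an unadjusted p under 0.05, 25 members were lower and none was higher, and among all genes tested 11.5% were lower. Without the 3 called genes the median of the other 54 was -0.43, and 19 of them had groups that did not overlap. In a bulk tumor sample fewer dividing cells and less RNA per dividing cell cannot be told apart.

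**Figure D1:**
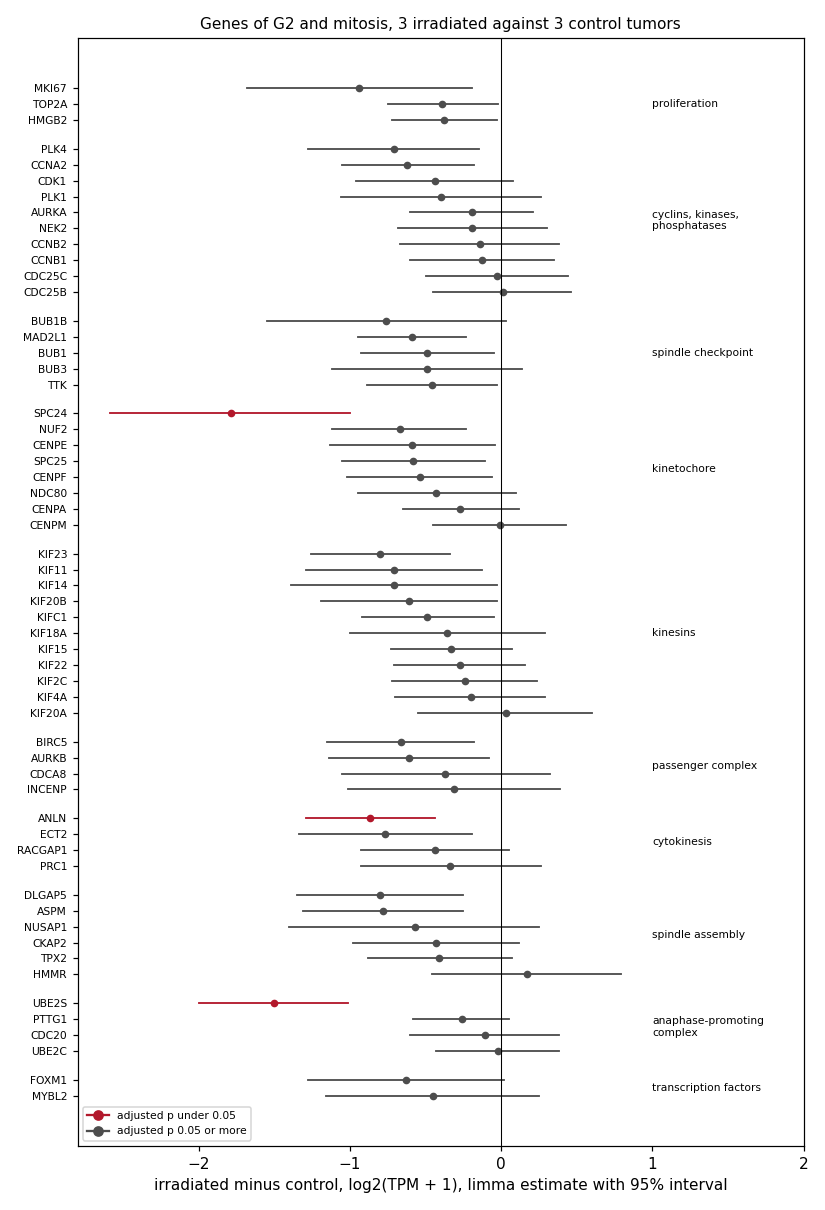
Log2 fold change of irradiated against control tumors for the 57 genes, on the log2(TPM + 1) scale, grouped by role, with limma's 95% interval as a horizontal line. UBE2S (-1.50), SPC24 (-1.79) and ANLN (-0.87) passed the test, and the rest lie mostly left of 0.

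Summed over the 57 genes, control tumors 1 to 3 held 4253, 2881 and 4046 TPM, and irradiated tumors 1 to 3 held 2871, 2588 and 2722 TPM. The irradiated sums were close to each other, and the sum in control tumor 2 was nearly that of the highest of them. The means were 3727 ± 740.0 TPM (SD, n = 3) and 2727 ± 141 TPM (SD, n = 3), so the irradiated mean was 73.2% of the control mean. Leaving out UBE2S and UBE2C, the most abundant members, gave 74.1%.

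The control tumors were not alike in these genes. Control tumor 2 was the lowest control in 46 of the 57 members, against 57.3% of all genes tested, and it was the lowest of all 6 tumors in 15, in AURKA level with irradiated tumor 2. Relative to the mean of the controls, the median member stood at a log2 difference of 0.29, -0.41 and 0.08 in control tumors 1 to 3 and at -0.49, -0.51 and -0.40 in irradiated tumors 1 to 3. Control tumor 2 thus lay beside the irradiated tumors in the median member, while control tumor 1 was the highest of the 6 tumors in 38 members. In 46 members all irradiated tumors were below control tumors 1 and 3, which 31.4% of all genes tested also showed. In 33 members control tumor 2 was at or below the highest irradiated tumor. Control tumor 2 was singled out for its low values in these genes, so leaving it out raises the control mean in most members. Without control tumor 2, 16 members fell by the same test: ANLN, TPX2, BIRC5, MYBL2, UBE2S, FOXM1, DLGAP5, KIF23, KIF11, CCNA2, MKI67, BUB1B, RACGAP1, SPC24, AURKB and KIFC1. In that fit the share of all genes called lower was 3.95% and the members' median was -0.64. Without control tumor 1 the median was -0.30, and with any other single tumor left out it was between -0.42 and -0.49. With all 6 tumors kept and each given a weight by how far it scattered, 12 members fell, and 4.51% of all genes were called lower. Without control tumor 1 no member was called, and without control tumor 3 or any single irradiated tumor only UBE2S was.

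**Figure D2:**
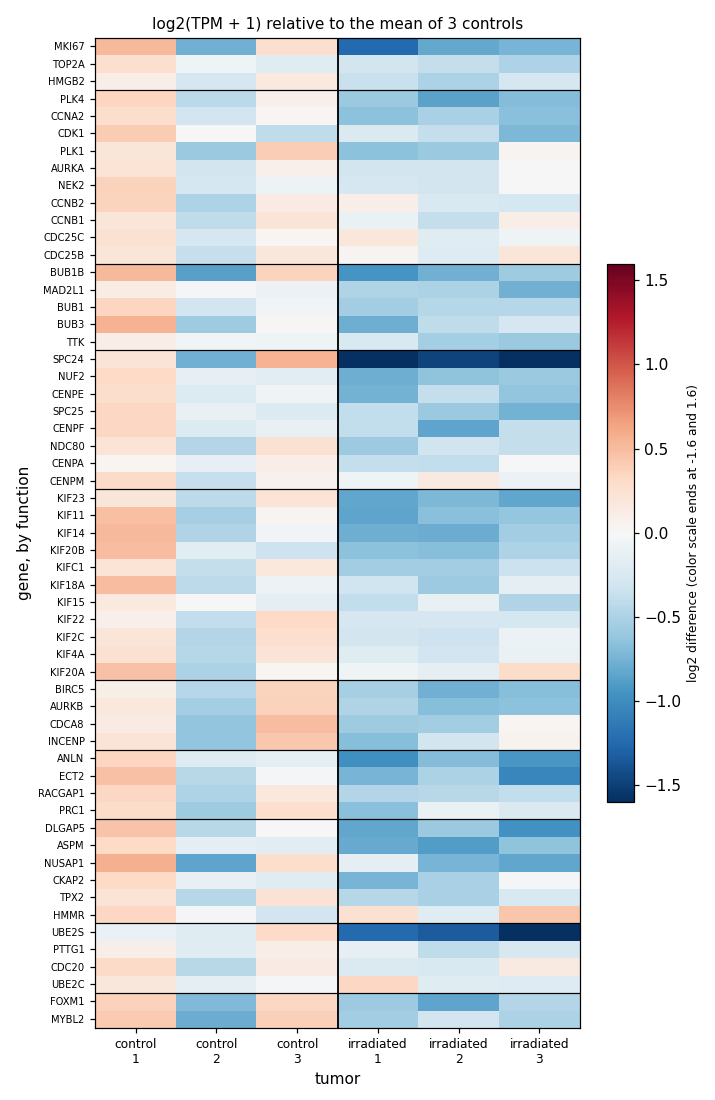
Log2(TPM + 1) of each of the 57 genes in each tumor minus the mean of the 3 control tumors, in colour, grouped by role. Control tumor 2 resembles the irradiated tumors in many genes, with a median difference of -0.41, against 0.29 in control tumor 1 and 0.08 in control tumor 3.

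Some whole-library values moved with these groups. Control tumor 2 stood apart, with 27.0% of its TPM in cytosolic ribosomal protein genes against 19.8% to 22.3% in the other tumors. Mitochondrially encoded genes held 9.24%, 7.58% and 10.5% of TPM in control tumors and 11.7%, 10.6% and 11.4% in irradiated tumors. Summed over 16 skeletal muscle markers, control tumors held 278, 311 and 698 TPM and irradiated tumors 4.59, 199 and 6.77 TPM. All 12 muscle markers that passed the filter had a lower fitted level after irradiation, and MYH1, MYH4 and CASQ1 were called. Among all genes tested, 55.7% had fold changes below 0 and 1.61% were called lower. Summed over 12 fibroblast markers, the values were 525, 579 and 1085 TPM against 153, 255 and 182 TPM. Most of this was COL1A1 (means of 460 and 114 TPM) and COL1A2 (151 and 33.5 TPM). Of the 9 measured, 8 (88.9%, against 55.7% of all genes tested) had fold changes below 0. Called lower were 4 collagen genes, COL1A1, COL1A2, COL3A1 and COL5A2. DCN was near 0 at -0.08, and PDGFRB lay in the other direction at 0.95 (means of 3.51 and 8.09 TPM, adjusted p = 0.211). LUM, PDGFRA and THY1 did not pass the filter. The 9 endothelial markers summed to 62.3 to 81.1 TPM in controls and 89.5 to 131 TPM in irradiated tumors. EGFL7 and ESAM made up most of this, at log2 fold changes of 0.65 and 0.38. TIE1 was at 12.98 TPM in irradiated tumor 3 and at most 2.44 TPM in any other tumor. None of the 4 endothelial markers tested was called. CLDN5, KDR, PECAM1, TEK and VWF did not pass the filter, and all of these but PECAM1 had lower means in irradiated tumors. The 10 leukocyte markers summed to 90.5 to 109 TPM and 108 to 208 TPM, most of it CD68 (means of 84.6 and 135 TPM), with PTPRC at 0.3 TPM or less and S100A8, S100A9 and TYROBP at 0 in every tumor. The 6 adipocyte markers summed to 0.92 to 1.17 TPM in controls and 1.58 to 4.55 TPM in irradiated tumors. The 9 markers of MDA-MB-231 cells summed to 10932 to 13851 TPM in controls and 12540 to 13887 TPM in irradiated tumors, and ESR1, the oestrogen receptor gene, was at most 0.32 TPM. These sums were carried by VIM (means of 4646 and 3353 TPM) and LGALS1 (5522 and 7870 TPM), which lay in opposite directions. Of the 9, 6 (66.7%, near the 55.7% of all genes tested) had fold changes below 0, with a median of -0.27 and none called. All these values are for human genes, in tumors grown in mice, and how mouse reads were handled is not given. A marker's level, 0 included, therefore does not show how much of a cell type a tumor held. The part of these marker and whole-library differences in the results on mitosis genes was not tested.

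UBE2S was the second most abundant member over the 6 tumors, after UBE2C. Its transcript was at 419, 393 and 555 TPM in control tumors 1 to 3 and at 190.0, 179 and 117 TPM in irradiated tumors 1 to 3. Every irradiated tumor was below every control tumor, with a wide gap between the lowest control and the highest irradiated tumor. UBE2S fell by 1.50 on the log2 scale (95% interval -2.0 to -1.01, limma adjusted p = 0.0132). The call was lost without control tumor 1 (adjusted p = 0.0584) and held without each of the other 5 tumors. A processed copy, UBE2SP1, was at 4.09, 5.42 and 6.76 TPM in controls and at 1.77, 1.49 and 0.81 TPM in irradiated tumors, and reads of gene and copy may be split in more than 1 way.

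UBE2C, the enzyme that starts the ubiquitin chains which UBE2S extends, did not show this difference. Its values were 621, 494 and 540 TPM in control tumors and 693, 479 and 476 TPM in irradiated tumors, so the groups overlapped widely. The log2 fold change of UBE2C was -0.02 (95% interval -0.43 to 0.38, adjusted p = 0.957), an interval that ends well short of the fall of UBE2S, though its sign turned to 0.03 and 0.02 under 2 other scalings. The ratio of UBE2C to UBE2S within a tumor was 1.48, 1.26 and 0.973 in controls and 3.65, 2.68 and 4.08 in irradiated tumors. All irradiated ratios were above all control ratios. UBE2S was picked for its fold change, so the ratios partly restate its own values, and the difference in ratio was not tested. CDC20, the activator that brings substrates to the complex, was at 125, 74.3 and 111 TPM in controls and 86.2, 85.0 and 112 TPM in irradiated tumors. With control tumor 2 the lowest of the 6 and irradiated tumor 3 above control tumor 3, its log2 fold change was -0.11 (95% interval -0.60 to 0.38, adjusted p = 0.809). PTTG1, which encodes securin, the inhibitor of separase and a substrate of the complex, was at 266, 219 and 268 TPM against 228, 188 and 209 TPM, with irradiated tumor 1 above control tumor 2. Its log2 fold change was -0.26 (adjusted p = 0.322). Among 19 further subunits and regulators of the complex, none was called and the median was -0.13. In 4 of them (21.1%) the groups did not overlap, all lower, near the 15.0% of all genes tested. FBXO5, which encodes the inhibitor EMI1, was at 14.9, 9.92 and 13.1 TPM in controls and 10.4, 10.4 and 10.8 TPM in irradiated tumors (log2 fold change -0.22, adjusted p = 0.539).

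**Figure D3:**
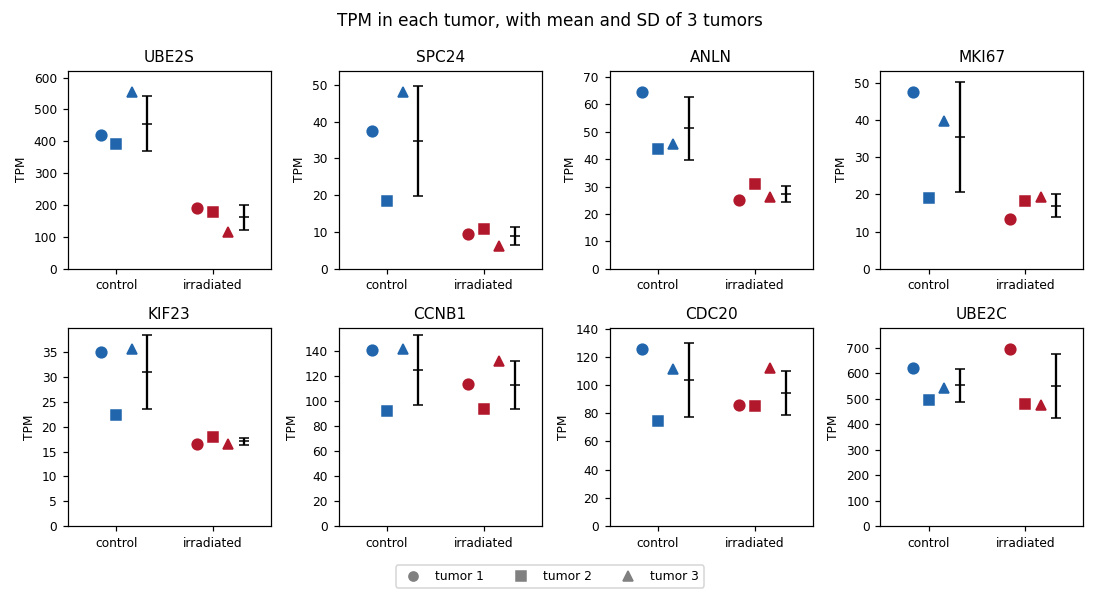
TPM of selected members in each of the 3 control and 3 irradiated tumors, 1 point per tumor, shaped by tumor number, with the group mean and SD as a bar beside the points. UBE2S and SPC24 have groups that do not overlap, while UBE2C and CDC20 overlap.

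SPC24 had a lower fold change than its partners in the NDC80 complex, the 4-protein rod that holds spindle microtubules at the kinetochore. SPC24 was at 37.4, 18.5 and 48.1 TPM in control tumors and at 9.36, 10.9 and 6.18 TPM in irradiated tumors. Control tumor 2 was the lowest control but still above every irradiated tumor. SPC24 fell by 1.79 on the log2 scale (95% interval -2.59 to -1.0, limma adjusted p = 0.0355), the lowest fold change among the 57 members. The call held without control tumor 2 (adjusted p = 0.0107) and was lost without any other single tumor (adjusted p up to 0.122). Its direct dimer partner SPC25 was at 19.3, 13.9 and 12.9 TPM against 11.3, 9.66 and 8.58 TPM, with no overlap and a log2 fold change of -0.58 (adjusted p = 0.158). NUF2, in the microtubule-binding arm, was at 15.8, 11.3 and 10.9 TPM against 6.87, 7.65 and 7.93 TPM. Its groups did not overlap either, at a log2 fold change of -0.67 (adjusted p = 0.104). NDC80 itself was at 15.8, 9.39 and 16.1 TPM against 8.64, 10.6 and 10.0 TPM, where control tumor 2 lay within the irradiated range (log2 fold change -0.43, adjusted p = 0.335). The ratio of SPC25 to SPC24 was 0.516, 0.751 and 0.267 in controls and 1.2, 0.887 and 1.39 in irradiated tumors, so all irradiated ratios were above all control ratios. The same order was seen for NDC80 to SPC24 (0.335 to 0.507 against 0.923 to 1.62) and for NUF2 to SPC24 (0.227 to 0.612 against 0.702 to 1.28). SPC24 was picked for its fold change, so the ratios partly restate its own values, and differences in ratio were not tested. The 95% intervals of SPC25 (-1.05 to -0.11) and NUF2 (-1.12 to -0.23) overlapped that of SPC24, and that of NDC80 (-0.95 to 0.10) did not.

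Of the 8 kinetochore and centromere members, 5 (62.5%, against 15.0% of all genes tested) had groups that did not overlap, all lower. The class median was -0.56. CENPE, a kinesin that moves chromosomes to the spindle equator, and CENPF, a kinetochore protein of late G2, were among these 5 genes. Their log2 fold changes were -0.59 and -0.54 (adjusted p = 0.211 and 0.194). CENPA, the histone variant that marks the centromere, was at -0.27. CENPM, a subunit of the constitutive centromere network, was at 53.9, 33.5 and 45.7 TPM in controls and 41.5, 48.2 and 40.6 TPM in irradiated tumors. Its irradiated values lay within the control range, at a log2 fold change of -0.01 (95% interval -0.45 to 0.43) whose sign turned to 0.04 under median-of-ratios scaling.

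ANLN was at 64.5, 43.7 and 45.7 TPM in control tumors and at 25.2, 30.7 and 26.1 TPM in irradiated tumors. The groups did not overlap, and here control tumor 1 stood above the other controls. ANLN fell by 0.87 on the log2 scale (95% interval -1.29 to -0.44, limma adjusted p = 0.0485). The call held without control tumor 2 (adjusted p = 0.0389) and was lost without any other single tumor (adjusted p up to 0.168). ECT2, the exchange factor that activates RhoA at the division plane, was at 42.3, 22.0 and 30.1 TPM against 17.8, 21.2 and 14.2 TPM. Its groups were separated by less than 1 TPM, and its log2 fold change was -0.77 (95% interval -1.34 to -0.19, adjusted p = 0.14). RACGAP1, its partner in the centralspindlin pathway, was at a log2 fold change of -0.44 (adjusted p = 0.289). PRC1, which bundles the microtubules of the central spindle, was at 74.5, 40.6 and 73.3 TPM against 37.7, 56.4 and 51.3 TPM (log2 fold change -0.34, adjusted p = 0.496), with irradiated tumors 2 and 3 above control tumor 2. PRC1 shares 57.6% of its exon bases with another gene on the same strand, and summed with it the log2 fold change was -0.45 (adjusted p = 0.347).

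The windows upstream of the start sites of these genes were examined because many of the members are known to share a cell cycle motif there. RefSeq windows (GRCh38.p14, 250 bases before to 50 after the start) were found for 47 of the 57 genes, in 60 windows, and none for AURKA, BIRC5, BUB3, CENPM, FOXM1, HMGB2, RACGAP1, TPX2, TTK and UBE2C. The motifs searched on both strands were TTTGAA, the core of the cell cycle homology region (CHR), its variant TTTAAA, the CCAAT box bound by the factor NF-Y, and 4 forms of the E2F site (TTTCCCGC, TTTCGCGC, TTTGCCGC and TTTGGCGC). The sequences of the 3 genes that fell are shown first. MKI67 (log2 fold change -0.94) and KIF11 (-0.71) follow as members below the median of -0.44, and CDC20 (-0.11) as a member near 0. MKI67, KIF11 and CDC20 all hold TTTGAA, which 15 of the 47 genes with a window lack. Capitals mark TTTGAA or its reverse complement TTCAAA, and CCAAT or its reverse complement ATTGG. Each sequence is on the gene's own strand, and all except that of ANLN are the 210 bases that end 1 base before the RefSeq start. That of ANLN is the 30 bases from 32 to 3 before its start.
UBE2S, chr19:55407789-55407998, minus strand: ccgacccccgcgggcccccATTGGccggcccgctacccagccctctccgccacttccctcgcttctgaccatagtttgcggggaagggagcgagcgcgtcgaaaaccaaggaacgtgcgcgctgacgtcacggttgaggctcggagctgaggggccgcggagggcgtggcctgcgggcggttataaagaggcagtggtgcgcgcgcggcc
SPC24, chr19:11155783-11155992, minus strand: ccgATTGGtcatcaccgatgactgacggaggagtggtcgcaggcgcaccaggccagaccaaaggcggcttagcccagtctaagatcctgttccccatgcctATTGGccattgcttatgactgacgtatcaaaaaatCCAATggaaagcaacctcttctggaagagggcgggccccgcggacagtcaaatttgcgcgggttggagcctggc
ANLN, chr7:36389830-36389859, plus strand: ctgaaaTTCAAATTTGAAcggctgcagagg
MKI67, chr10:128126424-128126633, minus strand: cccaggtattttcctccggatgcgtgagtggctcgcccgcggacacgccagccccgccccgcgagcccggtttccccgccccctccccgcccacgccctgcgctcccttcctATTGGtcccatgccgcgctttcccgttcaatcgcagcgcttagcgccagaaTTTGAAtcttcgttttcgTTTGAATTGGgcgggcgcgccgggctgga
KIF11, chr10:92592920-92593129, plus strand: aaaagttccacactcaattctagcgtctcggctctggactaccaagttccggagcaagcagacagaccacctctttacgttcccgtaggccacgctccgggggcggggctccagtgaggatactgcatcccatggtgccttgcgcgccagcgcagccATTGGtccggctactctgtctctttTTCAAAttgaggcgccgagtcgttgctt
CDC20, chr1:43358771-43358980, plus strand: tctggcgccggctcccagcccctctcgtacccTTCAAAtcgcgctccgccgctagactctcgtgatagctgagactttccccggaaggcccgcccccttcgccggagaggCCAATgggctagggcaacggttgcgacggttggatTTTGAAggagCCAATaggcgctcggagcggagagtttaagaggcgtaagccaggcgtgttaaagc

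In the stretch of ANLN the motif stands once on each strand, side by side, from 26 to 21 and from 20 to 15 bases before the RefSeq start. In GENCODE 29, however, all 30 bases of this stretch lie in an exon of ANLN, so there the matches are inside the transcript. In the stretches of SPC24 and CDC20, 26 of the 210 bases likewise lie in an exon of the gene itself. MKI67 holds TTTGAA from 47 to 42 and from 29 to 24 bases before its start, and the second match overlaps a CCAAT box on the other strand. KIF11 holds 1 match, from 28 to 23 bases before its start. These are RefSeq starts, and in GENCODE 29 MKI67 and KIF11 start farther downstream, at chr10:128126385 and chr10:92593286. CDC20 holds TTTGAA from 65 to 60 bases before its start with a CCAAT box on either side, and a further match farther upstream. UBE2S and SPC24 had no TTTGAA on either strand in the window, while SPC24 had 3 CCAAT boxes and UBE2S had 1. Over all members with a window, TTTGAA was present in 32 of 47 genes and in 58.3% of windows, against 15.2% of all 35116 windows in the table. CCAAT was present in 38 of 47 genes and in 71.7% of windows, against 34.6% of all, and both motifs stood in 46.7% against 5.9%. TTTAAA was present in 26.7% of member windows against 12.2% of all, and an E2F form in 8.3% against 3.3%. Members with and without TTTGAA overlapped in their fold changes. The 32 genes with TTTGAA had log2 fold changes from -0.94 to 0.17 with a median of -0.52, and the 15 without it had -1.79 to 0.03 with a median of -0.43. A match is only a run of letters and does not show that a factor binds there.

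UBE2S (ENSG00000108106) lies at chr19:55399745-55407777 and SPC24 (ENSG00000161888) at chr19:11131520-11155808, both on the minus strand, and ANLN (ENSG00000011426) lies at chr7:36389806-36453791 on the plus strand, in GENCODE 29 (GRCh38).

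Genes that mark dividing cells and shape their chromosomes had lower values in irradiated tumors but none passed the test. MKI67, which encodes the Ki-67 antigen scored in tumor pathology, was at 47.6, 19.0 and 39.8 TPM in controls and at 13.4, 18.2 and 19.4 TPM in irradiated tumors. Control tumor 2 lay between irradiated tumors 2 and 3, far below the other controls. The fitted log2 difference was -0.94 (95% interval -1.68 to -0.19, adjusted p = 0.154), and without control tumor 2 it was -1.32 (adjusted p = 0.0214). Without control tumor 1 it was -0.68 (adjusted p = 0.34) and without control tumor 3 it was -0.81 (adjusted p = 0.339). TOP2A, which encodes the topoisomerase that untangles sister chromatids, was at 83.0, 65.7 and 59.9 TPM against 56.1, 52.8 and 48.7 TPM. HMGB2, a chromatin protein abundant in dividing cells, was at 234, 181 and 242 TPM against 169.7, 152 and 180.3 TPM. The groups of both genes did not overlap but lay close together, by less than 1 TPM in HMGB2, with log2 fold changes of -0.39 and -0.38 (adjusted p = 0.219 and 0.21).

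The 10 cyclins, kinases and phosphatases that drive entry into mitosis had a median of -0.19, from -0.71 to 0.01, and none was called. CCNA2, the cyclin of S phase and G2, was at 23.6, 15.4 and 19.8 TPM in controls and 11.9, 13.2 and 11.8 TPM in irradiated tumors. The groups did not overlap (log2 fold change -0.62, 95% interval -1.05 to -0.18, adjusted p = 0.12). CCNB1, the main mitotic cyclin, was at 141, 92.1 and 141 TPM against 114, 93.4 and 132 TPM. All 3 irradiated tumors were above control tumor 2, and the log2 fold change was -0.13 (95% interval -0.60 to 0.35, adjusted p = 0.765). CCNB2 was alike in size at -0.14 (95% interval -0.67 to 0.38). CDK1, the kinase that both cyclins activate, was at 84.7, 63.7 and 47.6 TPM against 54.2, 48.6 and 38.3 TPM, where control tumor 3 was below irradiated tumors 1 and 2 (log2 fold change -0.44, adjusted p = 0.313).

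CDC25B, a phosphatase that activates CDK1, was at 43.3, 28.9 and 42.7 TPM in controls and 38.8, 32.5 and 43.3 TPM in irradiated tumors. For CDC25B the log2 fold change was 0.01 (95% interval -0.45 to 0.46), with control tumor 2 the lowest of the 6. That of its relative CDC25C was -0.03 (95% interval -0.50 to 0.44), which turned to 0.05 under quantile normalization. PLK4, the kinase that starts centriole duplication, was at 8.28, 4.42 and 6.70 TPM against 3.85, 3.03 and 3.50 TPM, with no overlap (log2 fold change -0.71, adjusted p = 0.153). PLK1, which acts from mitotic entry to cytokinesis, was at 84.5, 48.3 and 97.2 TPM against 46.4, 48.5 and 75.7 TPM. Control tumor 2 lay between irradiated tumors 1 and 2, and the log2 fold change was -0.40 (95% interval -1.06 to 0.26). AURKA, the centrosome kinase, was at 64.6, 44.9 and 58.5 TPM against 45.2, 44.9 and 55.4 TPM. Control tumor 2 and irradiated tumor 2 were at the same value, and the log2 fold change was -0.19 (95% interval -0.60 to 0.21, adjusted p = 0.561). NEK2, a kinase that splits the centrosomes, was also at -0.19 (adjusted p = 0.65).

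All 5 spindle checkpoint genes had fold changes below 0, against 55.7% of all genes tested, with a median of -0.49. The groups did not overlap in 3 of them, BUB1, MAD2L1 and TTK (60.0%, against 15.0% of all genes tested). MAD2L1, whose product inhibits CDC20 at unattached kinetochores, was at 28.6, 25.8 and 24.5 TPM in controls and 18.5, 18.2 and 14.9 TPM in irradiated tumors. Its controls lay within a narrow range above the irradiated tumors (log2 fold change -0.59, 95% interval -0.95 to -0.23, adjusted p = 0.0892). BUB1B, which encodes the checkpoint protein BUBR1, was at 30.3, 11.03 and 27.0 TPM against 10.4, 11.9 and 13.8 TPM. Control tumor 2 lay within the irradiated range, and the log2 fold change was -0.76 (95% interval -1.55 to 0.03, adjusted p = 0.256). Without control tumor 2 it was -1.19 (adjusted p = 0.02), without control tumor 1 -0.50 (0.506) and without control tumor 3 -0.58 (0.498). TTK, the kinase MPS1 that starts checkpoint signalling, was at 8.69, 7.71 and 7.56 TPM against 6.56, 5.17 and 4.97 TPM, and had a log2 fold change of -0.46 (adjusted p = 0.216).

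Among the 11 kinesins, the motor proteins of the spindle, the median was -0.36. The groups did not overlap in 4 genes (36.4%, against 15.0% of all genes tested). KIF23, the centralspindlin motor needed for cytokinesis, was at 35.0, 22.4 and 35.5 TPM in controls and 16.6, 17.9 and 16.6 TPM in irradiated tumors. The irradiated values were nearly equal and all below the controls, and the log2 fold change was -0.80 (95% interval -1.26 to -0.34, adjusted p = 0.077). KIF11, the motor that pushes the spindle poles apart, was at 30.0, 14.3 and 21.7 TPM against 11.3, 12.9 and 13.4 TPM (log2 fold change -0.71, adjusted p = 0.166). KIF14, a motor of the midbody, was at 4.85, 1.93 and 2.98 TPM against 1.38, 1.35 and 1.78 TPM and also had a log2 fold change of -0.71, at adjusted p = 0.225. In both, control tumor 2 was just above the irradiated tumors. KIF20A, which carries the chromosomal passenger complex to the midzone, was at 52.9, 26.5 and 38.7 TPM against 35.9, 34.3 and 46.8 TPM. Control tumors 1 and 2 were the highest and the lowest of the 6, and the log2 fold change was 0.03 (95% interval -0.55 to 0.60). KIF20B was at -0.61 with no overlap, and KIF15, KIF18A, KIF22, KIF2C, KIF4A and KIFC1 were between -0.20 and -0.49.

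The chromosomal passenger complex, which corrects wrong chromosome attachments, had a median of -0.49 over its 4 genes. BIRC5, which encodes survivin, was at 66.7, 45.3 and 80.2 TPM in controls and 42.7, 36.1 and 38.6 TPM in irradiated tumors. Its groups did not overlap (log2 fold change -0.66, 95% interval -1.15 to -0.18, adjusted p = 0.131). AURKB, the kinase of the complex, was at 98.5, 59.5 and 113 TPM against 62.0, 54.2 and 54.8 TPM, with irradiated tumor 1 just above control tumor 2 (log2 fold change -0.61, adjusted p = 0.187). Without control tumor 2 both genes fell, by 0.89 (adjusted p = 0.0281) and by 0.88 (adjusted p = 0.0231) on the log2 scale. Without control tumor 3 they were at -0.48 (adjusted p = 0.306) and -0.42 (adjusted p = 0.414), and without control tumor 1 at -0.62 (0.277) and -0.52 (0.371). INCENP, the scaffold, was at 20.6, 11.1 and 24.5 TPM against 10.8, 14.4 and 18.5 TPM, where control tumor 2 lay among the irradiated tumors (log2 fold change -0.31, adjusted p = 0.602). CDCA8, which encodes borealin, was at -0.37 (adjusted p = 0.522).

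Of the 6 spindle assembly genes, DLGAP5 and ASPM had groups that did not overlap (33.3%, against 15.0% of all genes tested). DLGAP5, whose product stabilises microtubules near chromosomes, was at 38.6, 20.3 and 27.8 TPM in controls and 15.2, 18.2 and 13.8 TPM in irradiated tumors (log2 fold change -0.80, 95% interval -1.35 to -0.25, adjusted p = 0.114). ASPM, a protein of the spindle poles, was at 5.92, 3.99 and 3.90 TPM against 2.15, 1.98 and 2.55 TPM (log2 fold change -0.78, adjusted p = 0.11). In both genes control tumor 1 was the highest. HMMR, a hyaluronan receptor that also binds the spindle, was at 3.51, 2.5 and 1.90 TPM against 3.23, 2.14 and 3.88 TPM. It was the highest fold change among the 57 members, at 0.17 (95% interval -0.46 to 0.79, adjusted p = 0.765), and its groups overlapped over most of their range. TPX2 and CKAP2 were at -0.41 and -0.43. NUSAP1 was at -0.57 (adjusted p = 0.406), shares 62.2% of its exon bases with another gene on the same strand, and was at -0.65 (adjusted p = 0.233) when summed with it.

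Both transcription factors of the programme had lower means in irradiated tumors and wide control ranges. FOXM1 was at 91.5, 42.9 and 89.2 TPM in controls and 46.8, 38.9 and 50.5 TPM in irradiated tumors. MYBL2, which encodes B-MYB, was at 151, 64.5 and 148 TPM against 76.4, 91.9 and 79.0 TPM. In FOXM1 control tumor 2 was below irradiated tumors 1 and 3, and in MYBL2 it was the lowest of the 6. The log2 fold changes were -0.63 (95% interval -1.28 to 0.02, adjusted p = 0.254) and -0.45 (95% interval -1.16 to 0.25, adjusted p = 0.441). Without control tumor 2 both fell, by 0.98 and 0.85 on the log2 scale (adjusted p = 0.023 for each). Without control tumor 1 FOXM1 was at -0.45 (adjusted p = 0.498) and MYBL2 at -0.25 (0.738), and without control tumor 3 they were at -0.47 (0.503) and -0.26 (0.739).

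Ratios within a tumor compare 1 member with another. The ratio of MKI67 to CCNB1 was 0.339, 0.206 and 0.282 in controls and 0.118, 0.195 and 0.147 in irradiated tumors. All irradiated ratios were below all control ratios, but irradiated tumor 2 and control tumor 2 were close, neither gene passed the test, and the difference in ratio was not tested. The ratio of CCNB1 to CDK1 was 1.66, 1.45 and 2.96 in controls and 2.1, 1.92 and 3.44 in irradiated tumors, and there the groups overlapped.

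Other genes of mitosis outside the 57 were described as 8 lists with 110 measured genes. None of the 110 was called, and the median was -0.29. In 29 (26.4%, against 15.0% of all genes tested) the groups did not overlap in the lower direction. In the higher direction this was 1 gene, against 11.6% of all genes tested. The 8 condensin subunits, which compact chromosomes, had a median of -0.64, and 4 of them had no overlap. The 14 cohesin genes had a median of -0.40, the 19 genes of the inner centromere -0.36, and 14 further outer kinetochore genes -0.27. Centrosome genes were at a median of -0.32 over 12 genes, G2 checkpoint regulators at -0.18 over 13, and subunits of the DREAM and B-MYB complexes at -0.15 over 11.

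Among the checkpoint regulators, WEE1, the kinase that holds CDK1 inactive, was at 11.4, 10.4 and 13.5 TPM in controls and 6.22, 4.59 and 7.09 TPM in irradiated tumors. Its groups did not overlap, and its log2 fold change was -0.88 (95% interval -1.36 to -0.41, adjusted p = 0.0634). CDKN1A, which encodes the p53 target and CDK inhibitor p21, was at 58.4, 49.3 and 63.8 TPM against 96.4, 75.6 and 62.2 TPM. Irradiated tumor 3 lay below control tumor 3, and the log2 fold change was 0.43 (adjusted p = 0.247). Of 50 measured genes of G1 and S phase, the earlier wave of the cycle, 1 was called lower, where 1.61% of all genes tested were. In 14 (28.0%, against 15.0% of all genes tested) the groups did not overlap in the lower direction. The median of the 50 was -0.35, against -0.44 in the 57 genes of G2 and mitosis. The called gene was GMNN, which encodes geminin, the inhibitor of repeated replication. It was at 47.6, 43.1 and 48.9 TPM in controls and 29.5, 29.8 and 25.1 TPM in irradiated tumors, and fell by 0.71 on the log2 scale (95% interval -1.04 to -0.38, limma adjusted p = 0.0411). The call held without control tumor 2 (adjusted p = 0.0361) and was lost without any other single tumor (adjusted p up to 0.126). As a reference, 12 widely expressed genes had a median of -0.27 and 6 of them (50.0%) had no overlap in the lower direction. That share was above the 38.6% of the 57 members.

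**Figure D4:**
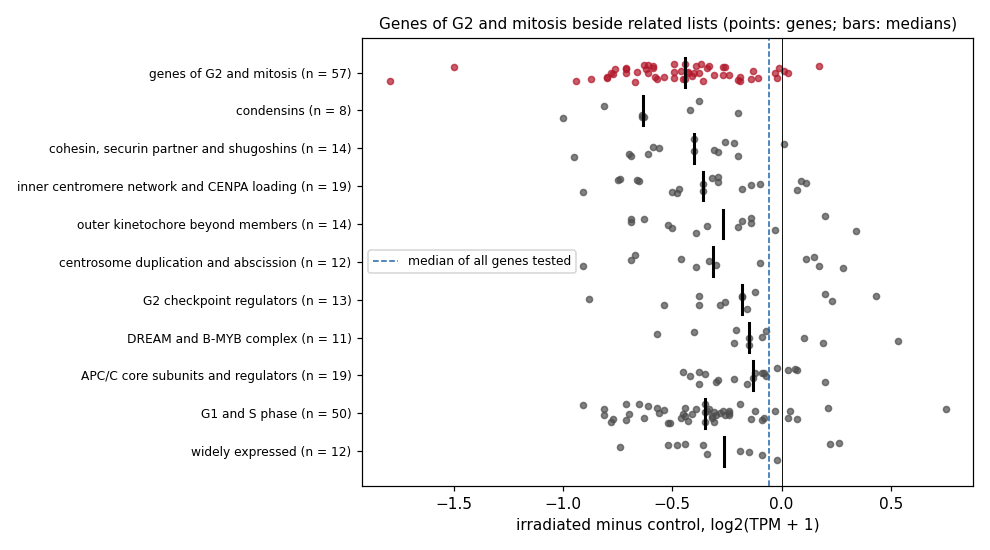
Log2 fold change of irradiated against control tumors for each gene of the 57 and of the other lists, 1 point per gene, with the list's median as a line. The medians run from -0.64 in condensins and -0.44 in the 57 genes to -0.13 in the anaphase-promoting complex, beside -0.27 in 12 widely expressed genes.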

How the data were processed

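RNA-seq was done on 3 control and 3 irradiated xenograft tumors. Per the labels' protocols, an Illumina TruSeq kit turned total RNA into libraries. Values are TPM (transcript shares scaled for gene length and library total) as deposited by the authors for 60606 genes, and HISAT2, StringTie, RSEM and the build hg38 are named, without versions, per the submitters' processing notes. How mouse reads, strand and annotation were handled is not given in the sources used here. TPM keep no depth, so the reads behind each value are unknown, no counting interval is given and no count test was run. No deposited column of values was left out.

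The test was limma's (version 3.58.1, run in R 4.3.3; lmFit, then eBayes with a mean-variance trend) on log2(TPM + 1), with group as the only term, on 14140 genes whose mean reached 1 TPM. Tests were two-sided, with Benjamini-Hochberg adjustment over all of these genes at 0.05, and intervals are limma's 95% intervals. The fit was tested on simulated data. The members, their classes and all other lists were chosen with earlier results of these data known. Per-tumor values are given for every member that passed the test, for the 2 members with the largest and the 1 with the smallest absolute log2 fold change in each class of 4 or more, for every member of smaller classes, and for a list of 13 well-known cell cycle genes. Genes of other lists are named where called, with CDKN1A, WEE1 and FBXO5 besides. Alternatives were other pseudocounts, filters, scalings and variance settings, a replicate block, and each tumor left out. Positions and shared exons came from GENCODE 29 (GRCh38), which need not be the authors' release. Promoter windows came from RefSeq (GRCh38.p14), read with Python 3.11.15.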

Additional observations from a re-analysis of the deposited data

How the results depend on the processing

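The number of genes called, 421 in all and 3 among the members, moved more with the settings than did the fold changes. Over all genes tested it was 133 with no filter on low values, 279 without the variance trend, 1064 with sample weights, 185 with a replicate block, 186 with both tumors of number 2 left out, and 127 to 791 with 1 tumor left out. Among the members it was 0 with no filter, 1 without the trend, 12 with sample weights, 1 with a replicate block (UBE2S), and 0 to 16 with 1 tumor left out. Same-numbered tumors did not deviate together (r of -0.043, -0.046 and -0.059 across genes), so the block is no evidence of pairing. The members whose groups did not overlap numbered 22, against 48 with both tumors of number 2 left out and 22 to 46 with 1 tumor left out. With fewer tumors such an order is easier to reach for any gene. Over all genes tested the share was 15.0% with all 6 tumors and 31.4% without control tumor 2, where the members numbered 46. It was not counted with other tumors left out. In the lists of other cell cycle genes, where 1 was called, the count was 0 with no filter, without the trend and with the block, 4 at a minimum mean of 5 TPM, 8 with median-of-ratios scaling, 6 with quantile normalization, 3 after rescaling without mitochondrially encoded and ribosomal protein genes, 4 with robust estimates, 16 with sample weights, 2 with both tumors of number 2 left out, and 0 to 21 with 1 tumor left out.

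UBE2S also lost its call with no filter (adjusted p = 0.0666). SPC24 lost it with no filter (0.133), without the trend (0.06) and with the replicate block (0.0693). ANLN lost it with a pseudocount of 5 TPM (0.0551), with no filter (0.123), without the trend (0.0836), with the block (0.105) and with both tumors of number 2 left out (0.0754).

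Fold changes turned their sign only in 8 members near 0. CDC25B was at -0.15 with sample weights and -0.07 with both tumors of number 2 left out (-0.18 to 0.12 with 1 tumor left out), and KIF20A was at -0.11 and -0.14 (-0.22 to 0.26). With median-of-ratios scaling, quantile normalization and rescaling, CDC25C was at 0.02, 0.05 and 0.01 (-0.16 to 0.09 with 1 tumor left out) and CENPM at 0.04, 0.04 and 0.03 (-0.19 to 0.14). UBE2C was at 0.03 with median-of-ratios scaling and 0.02 with rescaling (-0.20 to 0.07). With 1 tumor left out CCNB1 ranged from -0.33 to 0.00, CCNB2 from -0.39 to 0.04 and CDC20 from -0.33 to 0.04. The causes of these changes were not tested.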

Other observations

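The 11 measured tubulin genes, whose products form the spindle microtubules but also the cytoskeleton of resting cells, had a median log2 fold change of -0.17. None was called, and 1 (9.09%, against 15.0% of all genes tested) had groups that did not overlap in the lower direction. Summed, they stood at 5854, 3514 and 5376 TPM in control tumors and at 4126, 4092 and 4813 TPM in irradiated tumors. Control tumor 2 was the lowest of the 6 here as well.

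Pseudogene copies of the members were near 0 in every tumor apart from UBE2SP1. The copies of MKI67, CCNB2, BUB1, BUB3, RACGAP1, CKAP2, DLGAP5 and NEK2 that were looked up were listed at 0 in all 6 tumors.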
